A study of Mus musculus with 5 samples.

Results

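The genes described here are the 45 genes of the DNA replication machinery, a list by function of origin licensing factors, helicase subunits, DNA polymerases and primase, the sliding clamp with its loaders, the single-strand binding protein RPA, enzymes that mature Okazaki fragments, and enzymes that supply deoxynucleotides. All 45 were present among the 55147 gene symbols of the expression table, each with 1 gene ID. The transcriptome of mouse embryonic stem cells that lack C3G, a guanine nucleotide exchange factor encoded by Rapgef1, was compared with that of their wild type (WT) parent line by RNA sequencing. The WT group held 3 samples of E14Tg2a cells and the C3G null group held 2 samples. In the null cells a puromycin cassette driven by the EF1α promoter had been knocked in by CRISPR in place of early coding exons of C3G, and lines were grown from single colonies. The clones that gave the sequenced samples were not given in the sources used here, so an effect of the deletion and a property of a clone cannot be told apart. Both groups were grown on gelatin with serum and LIF, and the parent line did not carry the cassette.

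DNA is copied once in each cell cycle in ordered steps. The origin recognition complex (ORC) with Cdc6 and Cdt1 loads the MCM helicase on chromatin before S phase, and geminin (Gmnn) holds Cdt1 in check afterwards. Cdc45 and GINS then turn MCM into the active helicase, primase and polymerase alpha lay down primers, polymerases delta and epsilon extend them on the PCNA clamp, and flap endonuclease and ligase join the lagging strand. Embryonic stem cells cycle rapidly with short gap phases, and many of these genes are classical targets of E2F transcription factors.

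Expression was measured as TPM, a length-corrected share of all transcripts of a sample, in which the values of every sample sum to the same total, so that a class of RNA that takes a larger share lowers the TPM of all others. Protein-coding genes took 28.8 to 31.8% of TPM in WT and 18.6 and 26.0% in C3G null 1 and 2, while small RNA genes took 52.0 to 58.4% in WT and 68.0 and 56.2% in the null samples. Rapgef1 itself stood, as deposited, at 9.64 to 11.56 TPM in the WT samples and at 3.92 TPM (C3G null 1) and 5.55 TPM (C3G null 2). It was lower in both null samples, though not at 0, and exons outside the replaced part can still be transcribed. As deposited, however, both null samples were below all WT samples for 75.7% of all tested genes. All 12 embryonic stem cell markers examined reached 1 TPM in at least 2 samples, against 2 of 7 endoderm, 2 of 6 mesoderm, 3 of 5 neurectoderm, 4 of 5 trophectoderm and 3 of 7 fibroblast markers, and none was at 0 in all samples. In TPM scaled by the median of ratios, as described below, the marker sums moved with the group in both directions. The stem cell markers summed to 1680 to 2184 scaled TPM in WT and to 2929 and 2730 in C3G null 1 and 2, the endoderm markers to 4.32 to 4.34 and to 8.90 and 11.6, and the neurectoderm markers to 13.6 to 15.9 and to 25.9 and 24.6. These 3 sums were higher in both null samples. Of the 12 stem cell markers only 2 were higher, 1 was lower and 9 did not pass, where 12.8% of all tested genes were higher and 14.9% lower. Of the endoderm and neurectoderm markers, Cubn and Dab2 (endoderm) and Pax6 and Tubb3 (neurectoderm) were higher and Neurod1 (neurectoderm) lower (limma, adjusted p under 0.05). The mesoderm markers summed to 6.22 to 7.21 scaled TPM in WT and to 3.98 and 5.79 in the null samples. The trophectoderm markers summed to 16.3 to 17.5 and to 10.2 and 11.7, and the fibroblast markers to 4.54 to 5.47 and to 1.96 and 2.19. These sums were lower in both null samples. Among the markers that were tested, 1 of 2 mesoderm, 3 of 4 trophectoderm and 3 of 3 fibroblast markers were lower and 0 higher. Eomes is in both the mesoderm and the trophectoderm list. The part of other cells in the results below was not tested. In bulk samples a change in the share of cells in S phase and a change in RNA per cell cannot be told apart.

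The question addressed was whether loss of C3G changed the level of the replication genes, and the direction depended on how samples were put on a common scale. As deposited, all 45 genes had a log2 fold change below 0 (C3G null against WT), with a median of -0.37, while the median of all 12518 tested genes was -0.55. After median-of-ratios scaling, which sets the typical gene to a similar level in every sample, 44 of 45 lay above 0, with a median of 0.30 against 0.023 for all tested genes. In this scaled comparison 19 of the 45 genes were higher at an adjusted p under 0.05 from limma, where 12.8% of all tested genes were higher, and 0 were lower, where 14.9% of all tested genes were lower. At an unadjusted p under 0.05, 28 were higher and 0 lower, where 21.2% and 20.1% of all tested genes were. The 19 rises were modest, from 1.29-fold to 1.59-fold as ratios of group means, with adjusted p from 0.0114 to 0.0463. As deposited 0 were higher, at a background of 1.45%, and 4, Cdt1, Lig1, Rrm2 and Tyms, were lower, at a background of 56.8%, where an unadjusted p under 0.05 gave 0 and 8 of the 45 and 1.63% and 64.3% of all tested genes. All 45 genes passed the filter of 1 TPM in at least 2 samples, the lowest value of any gene in any sample being 2.57 TPM and the highest 122.62 TPM.

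The counts rested on few samples. The number of higher genes in the scaled comparison was 11 without WT 1, 4 without WT 2, 18 without WT 3, 10 without C3G null 1 and 4 without C3G null 2, and none was lower in any of these fits. The share of all tested genes that were higher was 9.73, 7.74, 13.2, 7.67 and 5.98% in the same order, so that the counts of 4 were close to the background. Of the 19 genes 0 passed the threshold in all 5 fits. Orc5, Orc6, Gins2 and Pold2 passed in 4 of them, Cdc6, Gins4, Pcna, Rfc1, Rfc3, Rpa1 and Rpa2 in 1, and Mcm6 in 0. The median log2 fold change was 0.40 without C3G null 1. As deposited, the number of lower genes was 0 without any one of the WT samples, 1 without C3G null 1 and 42 without C3G null 2, where 17.7 to 40.7% of all tested genes were lower in the fits without a WT sample and 21.7% and 82.8% in the last pair, with medians over the 45 genes of -0.053 and -0.67 in that pair. Dividing each sample by its protein-coding TPM in place of the median of ratios left 5 genes higher, Orc6, Mcm3, Gins2, Pold2 and Rfc5, with a median over the 45 genes of 0.066 against -0.17 for all tested genes, of which 5.65% were then higher and 29.8% lower.

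**Figure D1:**
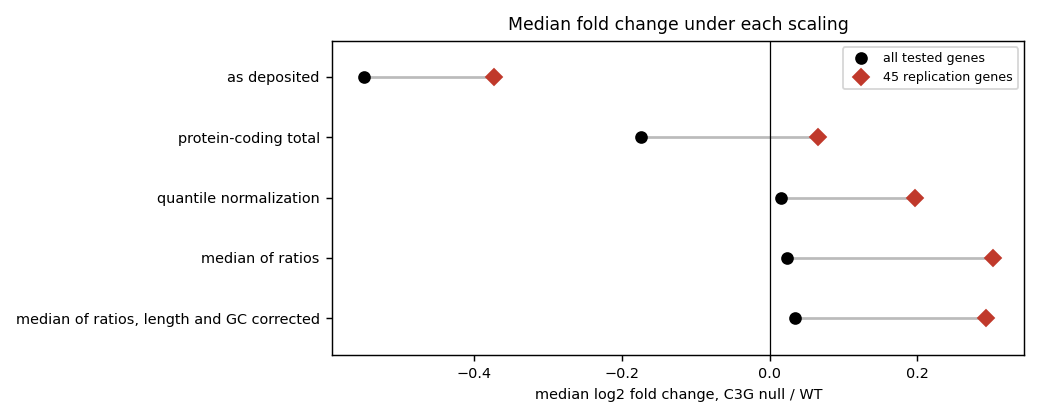
Median log2 fold change (C3G null over WT, horizontal axis) of the 45 replication genes (diamonds) and of all tested genes (circles) under each scaling. The replication genes lie to the right of all genes in each row, at -0.37 against -0.55 as deposited and at 0.30 against 0.023 after median-of-ratios scaling, while their side of 0 changes with the scaling.

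Sample by sample, C3G null 1 and C3G null 2 behaved differently as deposited and alike after scaling. In TPM as deposited C3G null 1 was below all WT samples for 45 of 45 genes, whereas C3G null 2 was below them for 19 and above them for 5. Both null samples were below all WT samples for 19 genes, where this was so for 75.7% of tested genes, and both were above for 0, where it was 1.49%. After scaling both null samples lay above all WT samples for 39 of 45 genes, with a background of 30.3%, and below for 0, with a background of 26.9%. The 6 genes that overlapped were Cdt1, Rpa3, Lig1, Rrm2, Tk1 and Tyms. Within the null group C3G null 2 was the higher of the pair for 33 genes in scaled TPM, the median gap between the pair was 9.79% of their mean, and the gap was widest for Lig1, at 31.7%, and Rrm2, at 30.0%. The share of the 45 genes in protein-coding TPM rests on the same division by the protein-coding total as the scaling given above. It was 0.452, 0.442 and 0.457% in WT 1 to 3 and 0.461 and 0.493% in C3G null 1 and 2. Both null samples were thus above all WT samples, C3G null 1 by a small margin. By role group this held only for origin recognition and licensing and for the clamp, clamp loaders and RPA, and the other groups overlapped. For flap and ligation C3G null 1 was below WT, at 0.0150% against 0.0176 to 0.0190%. For nucleotide supply it was below WT too, at 0.0356% against 0.0393 to 0.0401%.

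**Figure D2:**
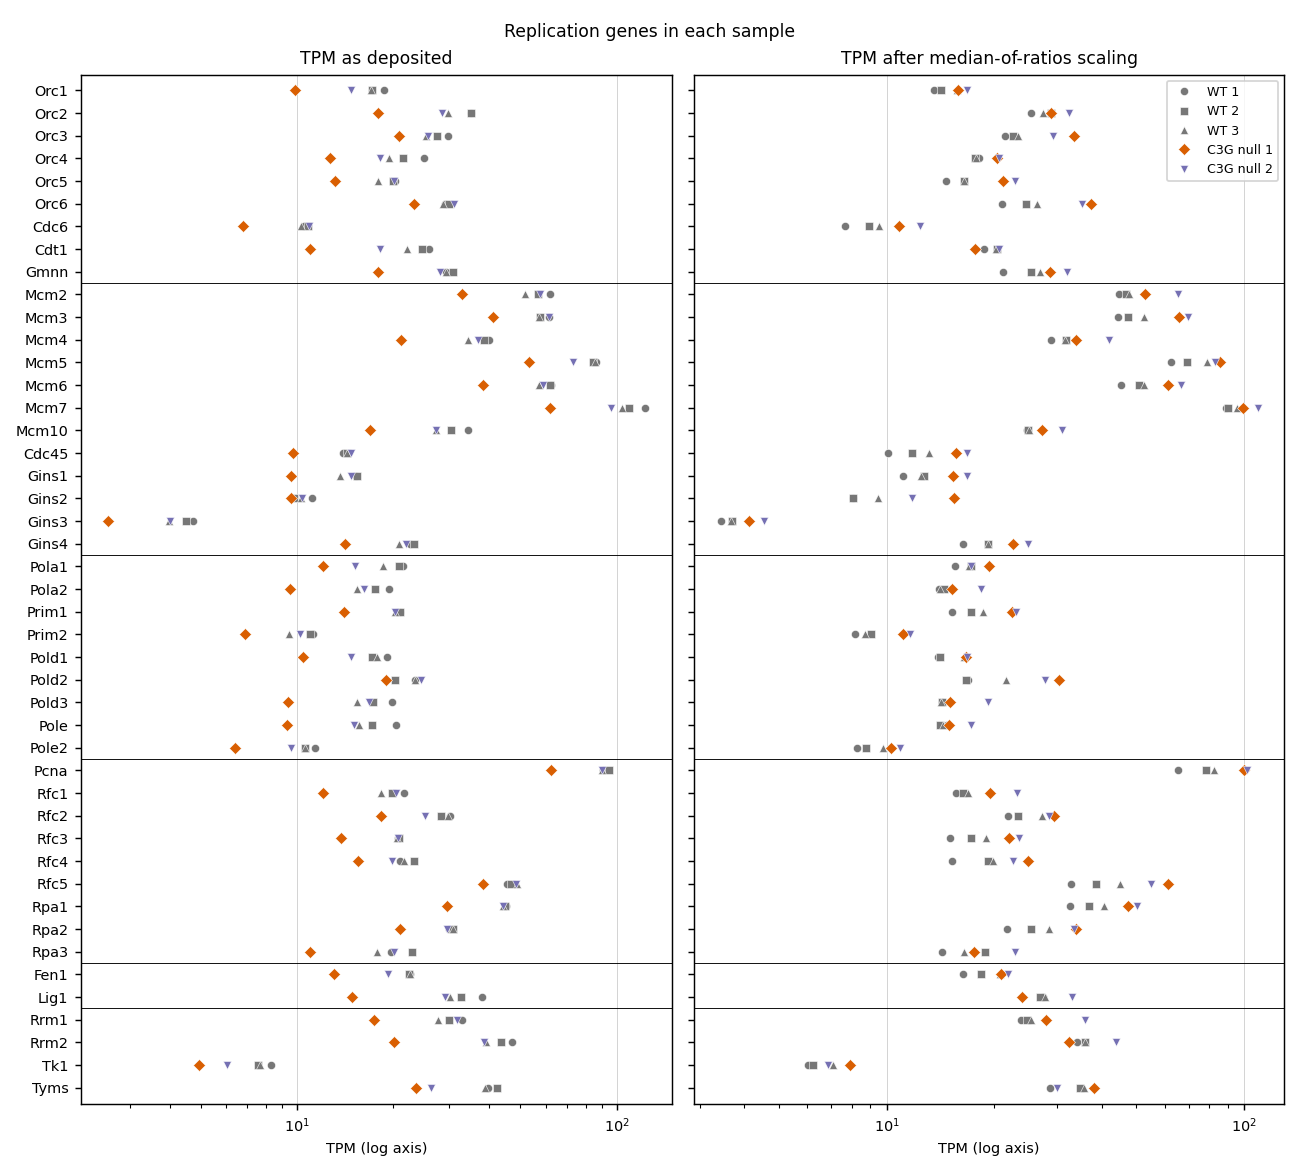
TPM of each replication gene in each of the 5 samples on a log axis, as deposited (left) and after median-of-ratios scaling (right), with horizontal lines between role groups. In the left panel C3G null 1 is the lowest sample for 45 of 45 genes, and in the right panel both null samples are above all WT samples for 39 of 45.

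Among the 9 origin recognition and licensing genes, 4 were higher in scaled TPM (Orc3, Orc5, Orc6 and Cdc6) and 0 were lower. In 8 of 9 both null samples were above WT. Of all tested genes 12.8% were higher, 14.9% were lower and 30.3% had both null samples above WT. Orc6 (chr8:85299632-85308278, GRCm38), the smallest and most loosely bound ORC subunit, had 21.05, 24.6 and 26.4 scaled TPM in WT 1 to 3 and 37.2 and 35.2 in C3G null 1 and 2, a log2 fold change of 0.58 (SE 0.11, adjusted p = 0.0114 from limma). Orc3 had 21.5, 22.5 and 23.3 scaled TPM in WT and 33.5 and 29.2 in the null samples, a log2 fold change of 0.46 (SE 0.094). Orc5 had 14.7, 16.4 and 16.5 scaled TPM in WT and 21.1 and 22.8 in the null samples, a log2 fold change of 0.45 (SE 0.090). For these 3 subunits the lower null sample was well clear of the highest WT sample in scaled TPM, although in TPM as deposited the groups overlapped and the log2 fold changes were -0.12, -0.23 and -0.24. Cdc6, the ATPase that joins ORC to load MCM, was nearer to the threshold, with 7.64, 8.91 and 9.51 scaled TPM in WT and 10.9 and 12.4 in the null samples (log2 fold change 0.39, adjusted p = 0.0404 from limma). The core subunits Orc1, Orc2 and Orc4 had log2 fold changes of 0.16, 0.17 and 0.19 and did not pass. Cdt1, the MCM loader whose activity geminin blocks, had the lowest value of the group, with 18.8, 20.3 and 20.3 scaled TPM in WT and 17.6 and 20.7 in the null samples, a log2 fold change of -0.046 (95% interval -0.28 to 0.18). In TPM as deposited Cdt1 had 25.89, 24.66 and 22.04 in WT and 11.00 and 18.19 in the null samples, the largest fall of all 45 genes on that scale (log2 fold change -0.73, adjusted p = 0.0152 from limma). Its inhibitor Gmnn had 21.2, 25.3 and 26.9 scaled TPM in WT and 28.7 and 31.9 in the null samples and did not pass (log2 fold change 0.30, adjusted p = 0.106 from limma).

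Of the 12 helicase genes, 6 were higher in scaled TPM (Mcm3, Mcm6, Cdc45, Gins1, Gins2 and Gins4) and 0 were lower. In all 12 both null samples were above WT. The backgrounds over all tested genes were 12.8% higher, 14.9% lower and 30.3% with both null samples above WT. The 6 MCM subunits, which form the ring that unwinds DNA, were among the most abundant replication transcripts, and Mcm7 led all 45 in each sample of WT with 104.02 to 122.62 TPM. Mcm3 had 44.4, 47.5 and 52.7 scaled TPM in WT 1 to 3 and 65.7 and 69.8 in C3G null 1 and 2, a log2 fold change of 0.49 (SE 0.11, adjusted p = 0.0176 from limma). Mcm6 had 45.1, 50.9 and 52.5 scaled TPM in WT and 61.3 and 66.8 in the null samples, a log2 fold change of 0.37 (SE 0.11) that did not pass when any 1 sample was left out. The other MCM subunits did not pass, with log2 fold changes between 0.19 for Mcm7 and 0.33 for Mcm2, and Mcm10, which helps to activate the helicase, had 0.21. Cdc45, the subunit recruited when origins fire, had 10.1, 11.8 and 13.2 scaled TPM in WT and 15.7 and 16.8 in the null samples, a log2 fold change of 0.45 (SE 0.12). The GINS subunits Gins1 and Gins4 rose by similar amounts, with log2 fold changes of 0.38 and 0.37. Gins1 had 11.1, 12.7 and 12.5 scaled TPM in WT and 15.4 and 16.8 in the null samples. Gins4 had 16.3, 19.2 and 19.2 scaled TPM in WT and 22.6 and 24.9 in the null samples. In both genes the null samples were clear of WT, but in TPM as deposited the log2 fold changes of all 12 helicase genes were below 0, from -0.53 to -0.053, and none passed.

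Gins2 (chr8:120578633-120589304, GRCm38) had the largest rise of the helicase group as a gene, with 8.07, 8.07 and 9.49 scaled TPM in WT and 15.4 and 11.8 in C3G null 1 and 2, a log2 fold change of 0.61 (SE 0.13, adjusted p = 0.0153 from limma). Its transcripts differed in this. The coding transcript had 7.35, 6.28 and 5.98 TPM as deposited in WT and 3.60 and 5.28 TPM in the null samples, and a scaled log2 fold change of 0.12 that did not pass. A retained-intron transcript of 511 bases had 2.95, 2.57 and 3.37 TPM in WT and 5.31 and 4.23 TPM in the null samples, and a scaled log2 fold change of 1.12 that did not pass over all transcripts (adjusted p = 0.0539 from limma). The coding share of Gins2 was therefore 66.0, 64.1 and 57.9% in WT and 37.4 and 50.8% in the null samples, a ratio within each sample that no scaling between samples can move. The share can still move with length, since the coding transcript has 3900 bases and the other 511. Over all tested genes the scaled fold change fell with length (Spearman coefficient -0.30), and the part of length in this share was not tested. Gins3, the least abundant of the 45 genes, had 3.43, 3.70 and 3.67 scaled TPM in WT and 4.12 and 4.55 in the null samples and did not pass.

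Of the 9 polymerase and primase genes, 3 were higher in scaled TPM (Prim1, Prim2 and Pold2) and 0 were lower. In all 9 both null samples were above WT. Among all tested genes these shares were 12.8% higher, 14.9% lower and 30.3% with both null samples above WT. Pold2 (chr11:5872180-5878292, GRCm38), the accessory subunit that holds polymerase delta together, had the largest log2 fold change of all 45 genes at 0.64 (SE 0.13, adjusted p = 0.0128 from limma). Its scaled TPM were 16.9, 16.6 and 21.6 in WT 1 to 3 and 30.4 and 27.7 in C3G null 1 and 2, so that both null samples stood above WT 3, itself apart from the other WT samples. Restricted to protein-coding transcripts, its log2 fold change was 0.46. The primase subunits moved together, the catalytic Prim1 with 15.2, 17.3 and 18.6 scaled TPM in WT and 22.5 and 23.1 in the null samples. Its partner Prim2 had 8.13, 9.06 and 8.72 scaled TPM in WT and 11.1 and 11.6 in the null samples. The primase log2 fold changes were 0.40 and 0.36. The catalytic subunits of the replicative polymerases had smaller values, with log2 fold changes of 0.13 for Pola1, 0.17 for Pold1 and 0.14 for Pole, and none passed. Pola1 had 15.6, 17.2 and 17.1 scaled TPM in WT and 19.3 and 17.3 in the null samples, the smallest log2 fold change of the group. As deposited, all 9 log2 fold changes were below 0, from -0.55 to -0.051, and dividing by the protein-coding total put those of Pola1, Pola2, Pold1 and Pole below 0.

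The clamp, clamp loader and RPA group held the largest share of higher genes in scaled TPM, 6 of 9 (Pcna, Rfc1, Rfc3, Rfc5, Rpa1 and Rpa2). None was lower, and the median log2 fold change was 0.40. Across all tested genes 12.8% were higher, 14.9% were lower and 30.3% had both null samples above WT. Rfc5, a small subunit of the complex that opens PCNA and loads it on primed DNA, had 32.9, 38.5 and 44.9 scaled TPM in WT and 61.1 and 55.0 in C3G null 1 and 2 (log2 fold change 0.58, SE 0.14, adjusted p = 0.0254 from limma). Rfc1, the large subunit, had 15.6, 16.3 and 16.9 scaled TPM in WT and 19.4 and 23.2 in the null samples. Rfc3 had 15.0, 17.2 and 18.9 scaled TPM in WT and 22.0 and 23.5 in the null samples. Both had both null samples above WT, with log2 fold changes of 0.36 and 0.40. Rfc4, at 0.38, did not pass (adjusted p = 0.0689 from limma), and Rfc2, at 0.26, had the smallest value of the group. Rpa1, the largest subunit of RPA, which coats single-stranded DNA, had 32.6, 36.7 and 40.5 scaled TPM in WT and 47.2 and 50.1 in the null samples. Rpa2 had 21.7, 25.3 and 28.4 scaled TPM in WT and 33.8 and 33.4 in the null samples, and the third subunit Rpa3 overlapped between groups. Pcna had 65.4, 78.2 and 82.5 scaled TPM in WT and 99.98 and 102 in the null samples, a log2 fold change of 0.42 at the edge of the threshold (adjusted p = 0.0463 from limma). Its value is uncertain, because reads can be split with the near-identical processed pseudogene Pcna-ps2, which was listed at 29.4, 32.4 and 30.0 TPM in WT and 22.1 and 32.3 TPM in the null samples, a ratio to Pcna of 0.326 to 0.342 in WT and 0.354 and 0.360 in the null samples. As deposited, all 9 genes of the group had log2 fold changes below 0, from -0.43 to -0.13, and none passed.

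**Figure D3:**
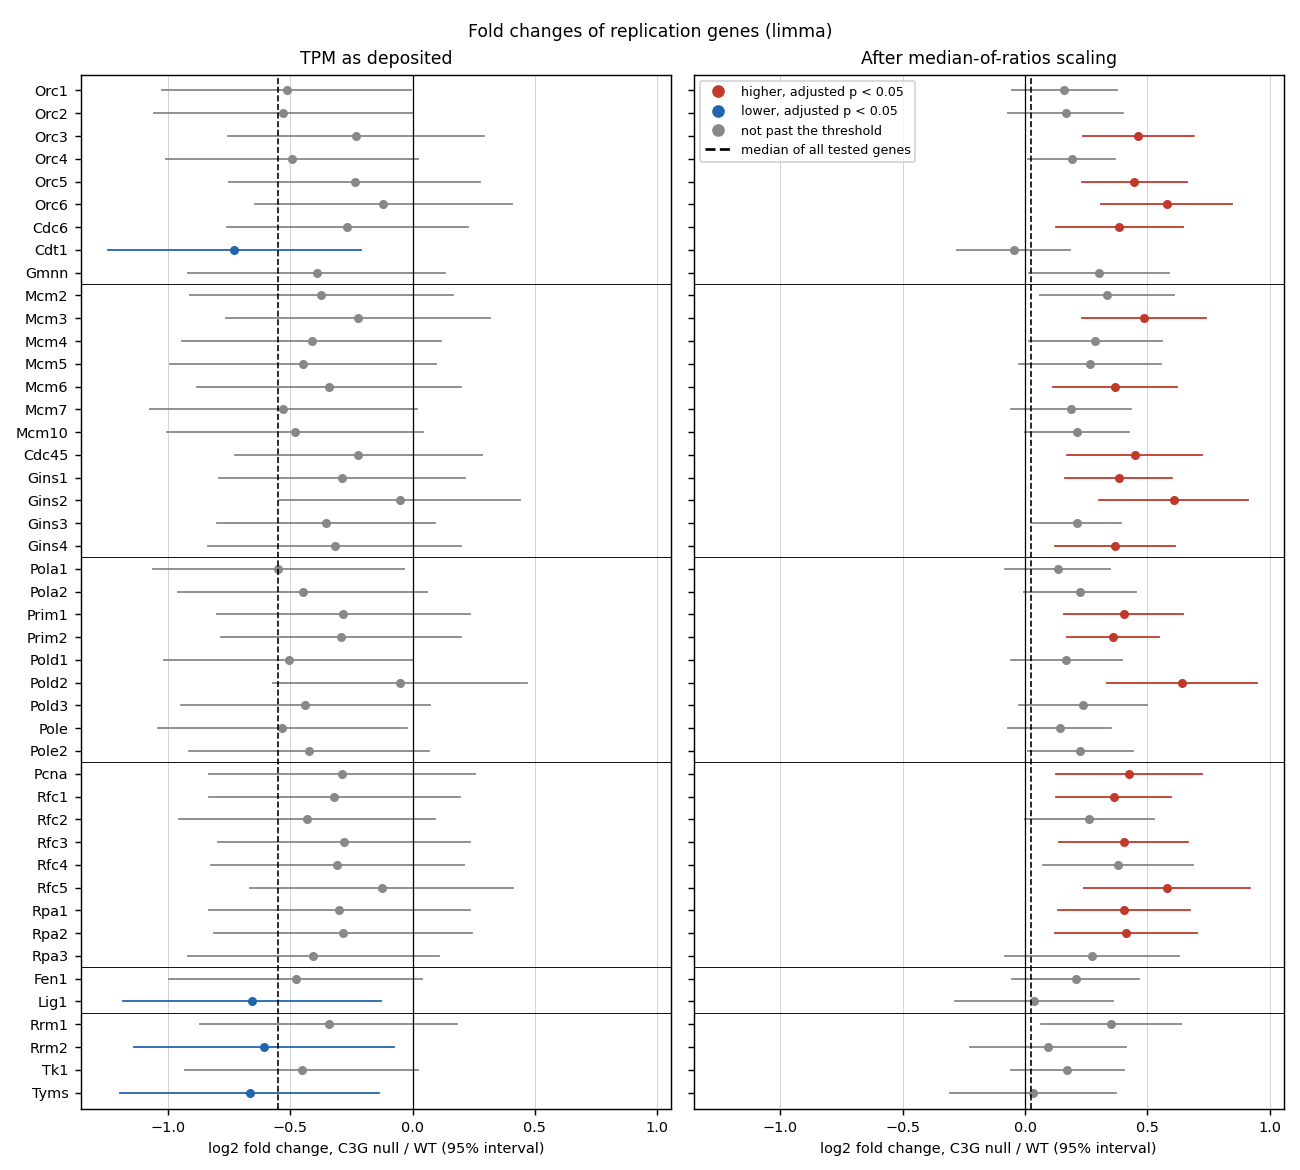
Log2 fold change of each replication gene (C3G null over WT) with its 95% interval from limma, as deposited (left) and after median-of-ratios scaling (right), with the dashed line at the median of all tested genes. After scaling 19 genes are past the threshold on the higher side and the largest is Pold2 at 0.64, while as deposited Cdt1, Lig1, Rrm2 and Tyms are past it on the lower side.

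None of the flap, ligation and nucleotide supply genes was called in scaled TPM (0 of 6 by limma, with Rrm1 alone at an unadjusted p under 0.05). Among all tested genes 12.8% were higher and 14.9% lower, and 21.2% and 20.1% at an unadjusted p under 0.05 from limma. Fen1, the flap endonuclease, had a log2 fold change of 0.21, and Lig1, the ligase that seals Okazaki fragments, had 27.4, 26.9 and 27.7 scaled TPM in WT and 23.9 and 32.9 in C3G null 1 and 2. The Lig1 null samples thus fell on either side of a tight WT group, and its log2 fold change was 0.037 (95% interval -0.29 to 0.36). Ribonucleotide reductase makes deoxynucleotides with a large subunit, Rrm1, and a small subunit, Rrm2, that is limiting in S phase. Rrm1 had 23.8, 24.7 and 25.4 scaled TPM in WT and 27.9 and 36.0 in the null samples, a log2 fold change of 0.35. Rrm2 had 34.0, 35.9 and 35.9 scaled TPM in WT and 32.4 and 43.8 in the null samples, a log2 fold change of 0.093. Neither passed, and the null samples of Rrm2 lay on either side of WT. Tk1, thymidine kinase, had 6.01, 6.22 and 7.06 scaled TPM in WT and 7.91 and 6.85 in the null samples. Its log2 fold change was 0.17. From protein-coding transcripts alone Tk1 had 3.33, 4.22 and 4.81 scaled TPM in WT and 5.93 and 5.51 in the null samples. The log2 fold change from these transcripts was 0.40 and did not pass. Tyms, thymidylate synthase, had 28.6, 34.8 and 35.7 scaled TPM in WT and 37.9 and 29.9 in the null samples, with a log2 fold change of 0.034. In TPM as deposited, Lig1, Rrm2 and Tyms were lower (log2 fold changes -0.66, -0.61 and -0.67), in each case with both null samples below WT. Among the 45 genes, 0 were lower on that scale without any one of the WT samples and 1 without C3G null 1, against the shares of all genes given above.

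Ratios between partner genes within a sample carry no factor between samples, and several of them separated the groups. How often ratios of other gene pairs do so was not examined. Separation was frequent for single genes in scaled TPM, with both null samples above WT for 30.3% and below for 26.9% of tested genes. The ratios are therefore given as descriptions only. The ratio of Rrm2 to Rrm1 was 1.43, 1.46 and 1.41 in WT 1 to 3 and 1.16 and 1.22 in C3G null 1 and 2, lower in both null samples. The ratio of Gmnn to Cdt1 was 1.13, 1.25 and 1.32 in WT and 1.63 and 1.54 in the null samples, higher in both. These genes differ in length and GC content, and the difference between their log2 fold changes was 0.35 before and 0.053 after the length and GC correction described below. The ratio of Cdc6 to Orc1, an early licensing pair, was 0.562, 0.628 and 0.605 in WT and 0.687 and 0.739 in the null samples, again higher in both. For these pairs, Rrm2 with Rrm1 and Cdc6 with Orc1, the differences between log2 fold changes were -0.26 and 0.22 before and -0.31 and 0.26 after the correction. By contrast the ratio of the catalytic subunits Pole and Pold1 was 0.876 to 1.06 in WT and 0.892 and 1.03 in the null samples, so the groups overlapped. Inside the MCM ring, Mcm3 took 14.1, 14.1 and 14.7% of the summed TPM of Mcm2 to Mcm7 in WT and 16.5 and 16.0% in the null samples, and Mcm7 took 28.3, 26.8 and 26.7% in WT and 24.9 and 25.1% in the null samples. Mcm3 and, by less, Mcm6 thus had larger shares and Mcm7 a smaller one, while Mcm2, Mcm4 and Mcm5 overlapped. Inside ORC, Orc6 took 18.4 to 20.8% in WT and 23.7 and 22.4% in the null samples. Orc5 was also above WT in both null samples, Orc1, Orc2 and Orc4 were below, and Orc3 overlapped. Among the clamp loaders Rfc5 took 32.7 to 35.1% in WT and 39.0 and 36.0% in the null samples and Rfc2 was below WT, and within GINS the share of Gins3 was below WT. These ratios were given without a test, since an exact permutation test of 3 samples against 2 cannot give a p below 0.1.

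**Figure D4:**
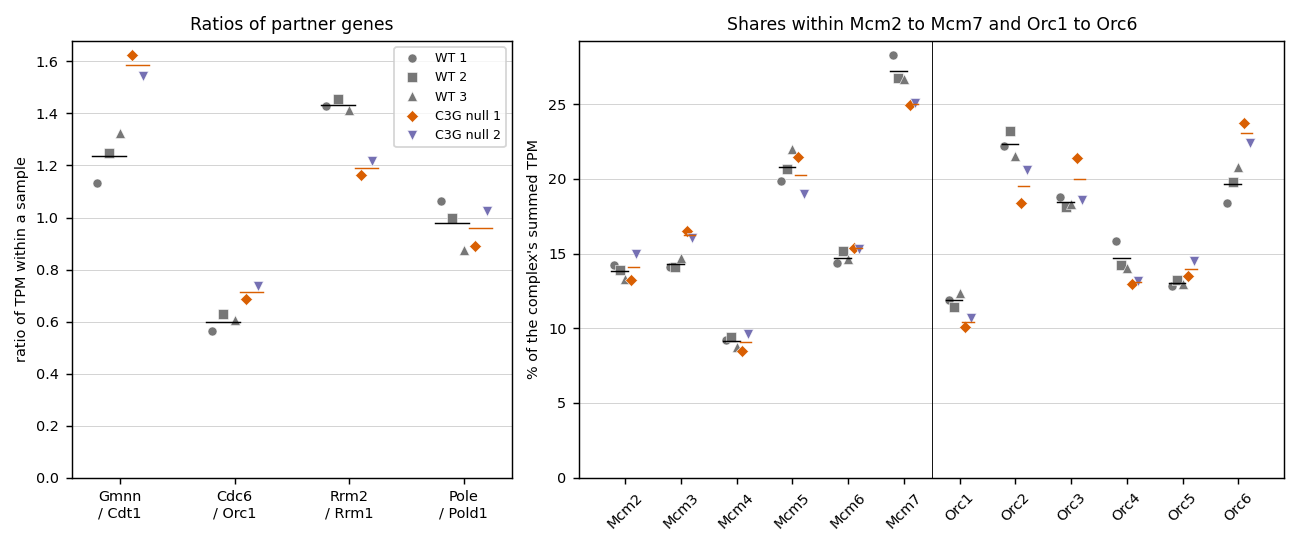
Within-sample ratios of partner genes (left) and the percentage of each subunit in the summed TPM of Mcm2 to Mcm7 and Orc1 to Orc6 (right), one symbol per sample, with short lines at the means of the 3 WT and 2 C3G null samples. Rrm2 over Rrm1 is 1.41 to 1.46 in WT and 1.16 and 1.22 in the null samples, Gmnn over Cdt1 is higher in both null samples (a log2 difference of 0.35 that is 0.053 after length and GC correction), and Pole over Pold1 overlaps.

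Most of the replication TPM came from coding transcripts in both groups, 80.5, 82.0 and 81.7% in WT and 80.5 and 83.1% in C3G null cells. In 43 of 45 genes the most abundant transcript was protein-coding. The exceptions were Rfc2, where a retained-intron transcript led and the coding share was 5.91 to 6.16% in WT and 6.43 and 6.10% in the null samples, and Tyms, led by a nonsense-mediated decay transcript. Values of Rfc2 and Tyms as genes therefore mostly do not describe coding RNA. Coding shares were also low for Orc3, at 40.4, 46.7 and 48.8% in WT and 48.2 and 54.0% in the null samples. For Orc4 they were 49.2, 44.5 and 40.1% in WT and 36.8 and 40.1% in the null samples. The coding share overlapped between groups for 39 genes, was above WT in both null samples for Orc5, Prim2 and Tk1, and was below WT for Orc4, Cdt1 and Gins2, where it was above for 10.5% and below for 6.34% of tested protein-coding genes, so that these counts are near the background. The coding share of Tk1 was 54.6, 68.0 and 68.6% in WT and 74.6 and 81.1% in the null samples. With protein-coding transcripts alone in each gene, 18 genes were higher and 0 lower in scaled TPM (13.2% and 14.9% of all tested genes), 16 of them shared with the 19, Gins2, Pcna and Rpa2 no longer passing and Pold3 and Rrm1 passing. At the level of single transcripts 144 of 272 were tested, with a median scaled log2 fold change of 0.22 against 0.020 over all transcripts. Only the main coding transcript of Orc6 passed (17.2, 19.1 and 21.1 scaled TPM in WT, 29.9 and 29.9 in the null samples, log2 fold change 0.62, adjusted p = 0.0380 from limma), where 2.65% of 25166 transcripts were higher, and 0 were lower, where the background was 4.28%.

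Transcript length moved with the fold changes, and GC content by less. Across all tested genes the scaled log2 fold change fell with gene length, with a Spearman coefficient of -0.30 (genes are not independent replicates), and across the 45 genes the coefficient was -0.17. The coefficients with GC content were -0.11 and -0.12. The 19 higher genes had a median length of 1600 bases and the other 26 a median of 1951 bases. When a smooth trend with length and GC content was subtracted from each sample, the coefficient with length was 0.041 over all genes and 0.29 over the 45. The 19 genes were still higher and the count grew to 28, while the share of all tested genes that were higher grew to 16.4%, with Mcm2, Mcm4, Mcm5, Mcm10, Gins3, Pola2, Pold1, Pole and Rrm1 added, and 0 lower. Chromosome position was a second measure of this kind. On chromosome 14, 241 of 441 tested genes were lower in scaled TPM, with a median log2 fold change of -0.45, but none of the 45 genes lies on it. They lie on 14 other chromosomes, where the medians of the other genes were between -0.014 and 0.084, and 44 of the 45 were above the median of their own chromosome.

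The start regions of these genes were compared for short words, using 300-base windows from RefSeq (GRCm38.p6) that reach 250 bases before and 50 after the start. Windows were found for 37 of the 45 genes, the others being Rfc2, Gins2, Pole, Gmnn, Gins4, Mcm4, Gins1 and Prim2. The E2F words searched, on both strands, were TTTCCCGC, TTTGGCGC, TTTGGCGG and TTTCCCGG, of which the first and last, and the middle pair, differ only in the final letter. At least 1 of them was present in 17 of 37 genes (45.9%), against 3.79% of 27025 genes and 7.26% of 8813 tested genes with a window. They were held by 6 of the 15 higher genes and by 11 of the other 22, a smaller share in the genes that passed. The word CCAAT of NF-Y was present in 62.2% of the 37 (43.9% of tested genes), CACGTG, an E-box, in 18.9% (12.4%), and TTTGAA, a cell-cycle homology region word, in 13.5% (14.05%). Upstream stretches of 150 bases are shown for 2 genes that were higher in scaled TPM, Orc3 and Mcm6, and for 2 that carry the same kind of word but did not pass, Mcm5 and Pola1, each 5′ to 3′ on the gene's strand with the E2F words in capitals. In Mcm6 (chr1:128359706-128359855, minus strand) the word TTTGGCGC occurs 2 times, and in Orc3 (chr4:34614943-34615092, minus strand), Mcm5 (chr8:75109359-75109508, plus strand) and Pola1 (chrX:93632156-93632305, minus strand) 1 word occurs. A match is a description of the letters and not evidence of binding.
Orc3: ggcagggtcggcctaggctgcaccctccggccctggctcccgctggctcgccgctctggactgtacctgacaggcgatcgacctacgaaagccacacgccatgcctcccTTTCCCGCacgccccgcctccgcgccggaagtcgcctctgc
Mcm6: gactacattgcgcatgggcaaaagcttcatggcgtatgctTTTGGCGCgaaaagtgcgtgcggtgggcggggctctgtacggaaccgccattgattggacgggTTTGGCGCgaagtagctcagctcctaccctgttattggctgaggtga
Mcm5: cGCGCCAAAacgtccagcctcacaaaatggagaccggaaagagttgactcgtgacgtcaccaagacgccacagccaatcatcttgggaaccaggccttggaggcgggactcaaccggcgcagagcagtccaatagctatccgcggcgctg
Pola1: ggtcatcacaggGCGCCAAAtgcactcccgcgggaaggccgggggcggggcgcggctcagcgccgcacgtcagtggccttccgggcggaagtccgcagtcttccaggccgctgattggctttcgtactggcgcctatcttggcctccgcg

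Other genes of the S phase program were read from lists chosen by function. Of 36 replication factors outside the 45, 5 were higher and 4 lower in scaled TPM, with a median log2 fold change of 0.12, shares close to the 12.8% and 14.9% of all tested genes. Chaf1b, a subunit of the histone chaperone that follows the fork, had 10.9, 11.7 and 13.0 scaled TPM in WT and 20.7 and 20.2 in C3G null cells (log2 fold change 0.74, adjusted p = 0.00226 from limma), and Pole4, an accessory subunit of polymerase epsilon, had a log2 fold change of 0.54. Supt16, a subunit of the chaperone FACT, had 46.5, 50.7 and 51.3 scaled TPM in WT and 23.9 and 28.4 in the null samples (log2 fold change -0.90), and Rnaseh2b, a subunit of ribonuclease H2, had -0.64. Supt16 and Rnaseh2b lie on chromosome 14, as does Wdhd1 among the lower genes, so that 3 of the 4 fell where most genes were lower. The 20 further nucleotide supply genes had 2 higher, led by Dut at 0.58, which removes dUTP from the nucleotide pool, and 1 lower, Samhd1 at -0.37, which degrades deoxynucleotides. The same background of 12.8% higher and 14.9% lower applies to these counts.

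The E2F, pocket protein and S phase entry list of 31 genes had 4 higher and 4 lower and a median log2 fold change of 0.028 in scaled TPM, close to that of all tested genes. Of all tested genes 12.8% were higher and 14.9% lower in scaled TPM, the background for the scaled counts in this paragraph. At an unadjusted p under 0.05 from limma these shares were 21.2% and 20.1%. Tfdp2, an E2F partner, was at 0.53 and Cdk4 at 0.44, while Rb1, the pocket protein that restrains E2F and a gene of chromosome 14, had 8.02, 7.27 and 7.09 scaled TPM in WT and 2.502 and 2.501 in C3G null cells (log2 fold change -1.27), and Cdk6 was at -0.75. E2f1 was itself higher, with 3.27, 3.32 and 2.97 scaled TPM in WT and 4.19 and 4.64 in the null samples. Of 30 mitotic genes 0 were higher and 3 lower, namely Cenpf and Cenpe, both at -0.45, which act at kinetochores, and Foxm1 at -0.34, with 1 higher and 5 lower at an unadjusted p under 0.05 from limma. The mitotic falls were not more frequent than falls among all tested genes. Of 22 replication stress and repair genes 5 were higher and 0 lower (13 and 0 at an unadjusted p under 0.05), with the checkpoint kinase Atr at 0.38 and Rad1 at 0.34 the largest of those that passed. H2afx, a histone variant marked at DNA breaks and named here after its value was seen, had the largest log2 fold change of the list at 0.82 and did not pass (adjusted p = 0.0736 from limma). As deposited, none of these lists held a higher gene, and 17 of 36, 8 of 20, 19 of 31, 18 of 30 and 5 of 22 were lower in the order given, against 56.8% of all tested genes. Differences between the lists were not tested.

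**Figure D5:**
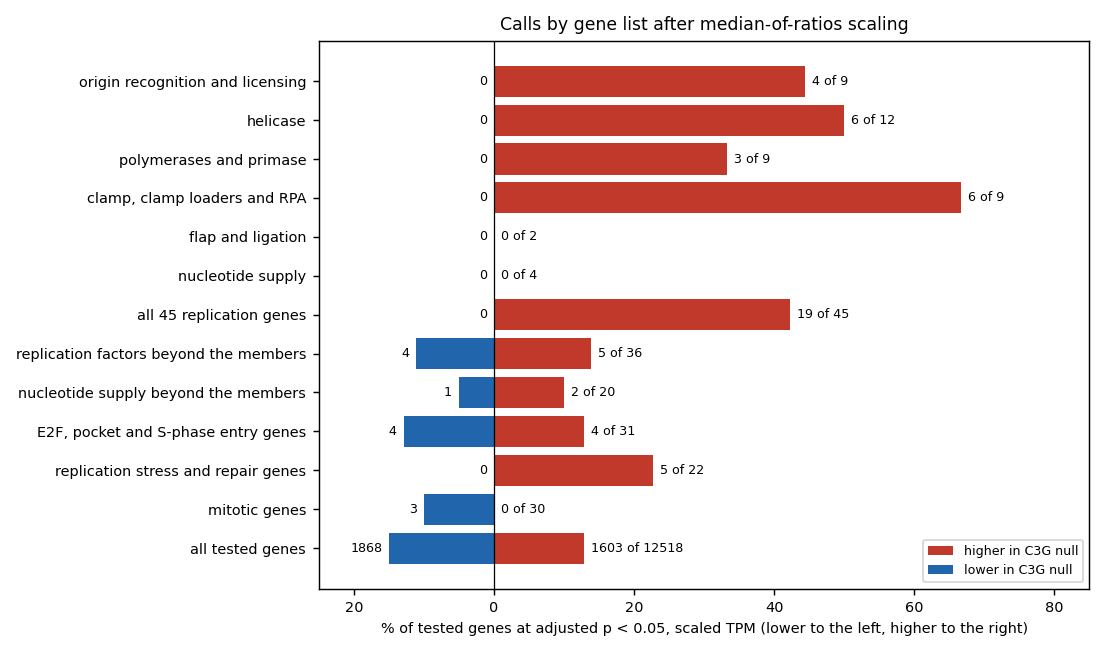
Percentage of tested genes that were higher (to the right) or lower (to the left) at an adjusted p under 0.05 in scaled TPM, for the 6 role groups, the 45 replication genes, 5 other lists and all tested genes, with gene counts beside the bars. The 45 genes have 19 higher and 0 lower, the mitotic list of 30 has 0 higher and 3 lower, and all tested genes have 1603 higher (12.8%) and 1868 lower (14.9%).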

How the data were processed

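RNA of 3 WT and 2 C3G null samples was sequenced, and the deposited values are TPM per Ensembl transcript, rounded by the authors to 2 decimals. The submitters' processing notes name bcl2fastq 2.20, FastQC 0.11.7, STAR 2.5.1b and RSEM 1.2.31 and mouse build mm10, without their settings. Counts were not used here, so depth is unknown and no counting interval was given. Because labels do not say that the samples came from separate cultures, p-values measure the spread between samples, which may be technical. TPM were summed per GENCODE M21 symbol (141524 of 142647 transcripts matched). Each sample was divided by its median-of-ratios factor over genes above 0 in all samples (1.38, 1.21 and 1.09 for WT 1 to 3, 0.623 and 0.880 for C3G null 1 and 2). limma 3.58.1 in R 4.3.3, with a mean-variance trend, was run on log2(TPM + 1), so that fold changes of low genes are understated, over genes with at least 1 TPM in at least 2 samples, two-sided with Benjamini-Hochberg adjustment over all 12518 of them. In the main fit as deposited, limma drew each gene's variance wholly from the trend over all genes. Those p-values and intervals therefore do not measure the spread of single genes. The count-based test of the study could not be repeated. All 45 genes were accounted for, those higher in scaled TPM and the extremes of each role group with all values, and of each other list the 2 that rose and the 2 that fell most among its calls, of which 1 gene is not reported here. The genes and lists were chosen with earlier results of these data known. Scripts were tested on simulated data. Alternatives were other scalings, pseudocounts of 0.1 and 5, filters, no trend, a length and GC correction, a replicate block and leaving out each sample. Factors from genes of at least 1 TPM or from protein-coding genes, and sums over coding transcripts, were chosen after seeing the data.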

Additional observations from a re-analysis of the deposited data

How the results depend on the processing

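With 3 and 2 samples and no counts, single calls close to the threshold are uncertain. The count of 19 higher genes in scaled TPM, where 12.8% of all tested genes were higher, was 6 without a filter on low TPM. In that fit 33039 genes were tested and 3.67% were higher. With protein-coding total scaling the count was 5, where 5.65% of all tested genes were higher. It was between 4 and 18 when 1 sample was left out. It stayed between 16 and 28 under pseudocounts of 0.1 and 5, a filter of 5 TPM, no trend, quantile normalization and length and GC correction. The same range held for the replicate block and the alternatives chosen after seeing the data. In these fits 11.8 to 16.4% of all tested genes were higher. Of the 45 genes 0 were lower under any of these alternatives. The median log2 fold change of 0.30 was 0.066 with protein-coding total scaling and 0.20 with quantile normalization, where its distance to all genes was 0.18, and between 0.24 and 0.40 when 1 sample was left out. As deposited, the 4 lower genes became 0 without a filter and 0 with the replicate block, and between 0 and 42 when 1 sample was left out, with a median between -0.67 and -0.053. Without a filter the member median as deposited minus that of all genes was -0.25, all genes then having a median of -0.13. Of transcripts, 6 were higher with a filter of 5 TPM, 0 with the replicate block and 0 to 1 when 1 sample was left out, with 0 to 1 lower. The cause of these shifts was not tested unless stated.

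Whether the replicate numbers of the labels pair the samples could not be decided. Deviations of same-numbered samples from their group means correlated at -0.17 and 0.18. With 2 null samples these deviations are mirror images of each other, so the values are not separate checks. With the replicate block 22 genes were higher in scaled TPM, where 14.4% of all tested genes were. Together with the length and GC correction it was 22 again, where 11.1% of all tested genes were higher.

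The log2 fold changes of single genes turned sign as follows, none of them past the threshold. With protein-coding total scaling they were -0.070 for Orc1, -0.071 for Orc2, -0.042 for Orc4, -0.057 for Mcm7, -0.023 for Mcm10, -0.099 for Pola1, -0.0061 for Pola2, -0.061 for Pold1, -0.089 for Pole, -0.027 for Fen1, -0.20 for Lig1, -0.15 for Rrm2, -0.041 for Tk1 and -0.20 for Tyms. With quantile normalization they were -0.14 for Mcm7, -0.079 for Lig1, -0.076 for Rrm2 and -0.11 for Tyms. With length and GC correction Cdt1 was 0.11 and Tyms -0.10, and with the replicate block added 0.12 and -0.070. Factors from genes of at least 1 TPM gave -0.030 for Lig1 and -0.034 for Tyms, factors from protein-coding genes -0.018 and -0.021, and coding transcripts alone -0.014 for Orc4. When 1 sample was left out, Cdt1 was between -0.15 and 0.065, Lig1 between -0.18 and 0.26, Rrm2 between -0.12 and 0.31 and Tyms between -0.13 and 0.20.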
